A study of Brassica napus with 6 samples.

Results

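miR159 and miR319 are related plant miRNA families, and in this study of young rapeseed (Brassica napus) pistils and siliques, the seed pods of the plant, they are known from small RNA and from degradome libraries. Members were taken by family number in the miRNA name. They were 2 of the 69 known miRNAs counted, ath-miR159a and ath-miR319a, and 31 degradome entries, 21 of the 577 entries of the short-silique line (SS) and 10 of the 162 of the long-silique line (LS). Both lines were backcross progeny of 8008 × 4942 that were grown in the field. No treatment or transgene is named in the labels. Tissue of both lines was collected between 0 and 7 days after pollination, from roughly 12 plants for each stage, so each library mixes plants, and the stages it holds are not told apart. There were 2 small RNA libraries and 1 degradome library of SS, and 2 small RNA libraries and 1 degradome library of LS. Count columns were assigned to libraries by their headers, which match the sample titles. The description fields differ from this, since they name the table of pair 1 for both LS libraries and that of pair 2 for both SS libraries, although each table holds a column of each line. The count tables hold miRNAs alone, so the tissue was not set against marker genes.

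A plant miRNA guides an ARGONAUTE protein to mRNAs that pair with it along most of its length, and the mRNA is cut opposite the middle of the miRNA. In Arabidopsis, miR159 acts mainly on GAMYB-like MYB genes, which take part in gibberellin responses, anther development and seed development. miR319 acts mainly on TCP genes of the class that restrains cell division in leaves and petals. The families are thought to share an origin. In a degradome library the 5′ ends of cleaved mRNAs are sequenced, which shows where each mRNA was cut.

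The mature sequences are shown first because the comparison of the families turns on them. They stand in the degradome tables as bra-miR159a and bra-miR319-3p, in DNA letters. The count tables give the names ath-miR159a and ath-miR319a without a sequence. Capitals mark the seed, bases 2 to 8.
bra-miR159a: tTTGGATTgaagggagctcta
bra-miR319-3p: tTGGACTGaagggagctccct

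Both were 21 bases long. Read from the same first base they were equal at 8 positions. With bra-miR319-3p moved by 1 base they were equal at 17 of the 20 positions that overlap. The longest run in common was 12 bases, at bases 8 to 19 of bra-miR159a and 7 to 18 of bra-miR319-3p. The seeds differed. Of the 143 other miRNA names with a complete sequence in the degradome tables, predicted miRNAs included, none had the seed of either member and none held the run of 12 bases.

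The sites on the paired mRNAs were few in kind. The 12 mRNAs paired with bra-miR159a carried 6 distinct sites, and the 10 paired with bra-miR319-3p carried 3. All 9 are shown 5′ to 3′, since the families' targets are compared through them below. Capitals mark bases without a Watson-Crick pair in the deposited alignment, including G-T pairs.
miR159 site 1: tGgagctcccttcaTtccaaT
miR159 site 2: tagagcCcccttcaaAccaaa
miR159 site 3: CagaActcccttcatccaaG
miR159 site 4: tagagctTccttcaaAccaaa
miR159 site 5: CaagcTtcccttcaatccaaT
miR159 site 6: CagagGtTccttAaaccaaa
miR319 site 1: aggggTccccttcagtccaG
miR319 site 2: aCggGgtAcccttcagtccaG
miR319 site 3: aggggcAcTcttcagtccaG

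miR159 site 1 was the commonest of its family, with 5 mRNAs (BnaA03g22590D, BnaA05g27620D, BnaC03g26620D, BnaCnng31260D and BnaCnng49390D). miR159 site 2 was on BnaA03g15690D and BnaC03g18870D, and site 3 on BnaA05g02890D and BnaC04g52720D. Sites 4, 5 and 6 were each on 1 mRNA, BnaC04g43020D, BnaC03g38140D and BnaA08g25530D. miR319 site 1 was on 6 mRNAs (BnaA01g29050D, BnaA03g33680D, BnaA05g24520D, BnaC01g36430D, BnaC03g38850D and BnaCnng59700D), site 2 on BnaA05g11640D, BnaA05g11650D and BnaC04g13290D, and site 3 on BnaA05g30730D. mRNAs that share a site share its sequence, so their entries are not independent observations of pairing. None of the 22 identifiers matched the RefSeq gene table used here. They therefore carry no gene name, and whether they are GAMYB-like or TCP genes was not checked. The letter after Bna gives the subgenome, A or C, that rapeseed has from each of its parent species.

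The 10 mRNAs of miR319 shared a run of 11 bases, CTTCAGTCCAG, which lies opposite the 5′ part of the miRNA. The sites of miR159 had no more than 4 bases in a row in common. In the deposited alignments the miR319 seed was paired at all 7 bases in each of its 3 sites, while the miR159 seed was paired at 6 of 7 bases in 5 of its 6 sites and at 7 in site 5 alone. The unpaired seed base was base 6 or base 7. Bases 10 and 11, between which ARGONAUTE cuts, were paired in all 9 sites. In the miR319 sites the unpaired bases lay, apart from the G-T pair at base 1, at base 12 or beyond, and base 17 was without a Watson-Crick pair in every site.

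**Figure D1:**
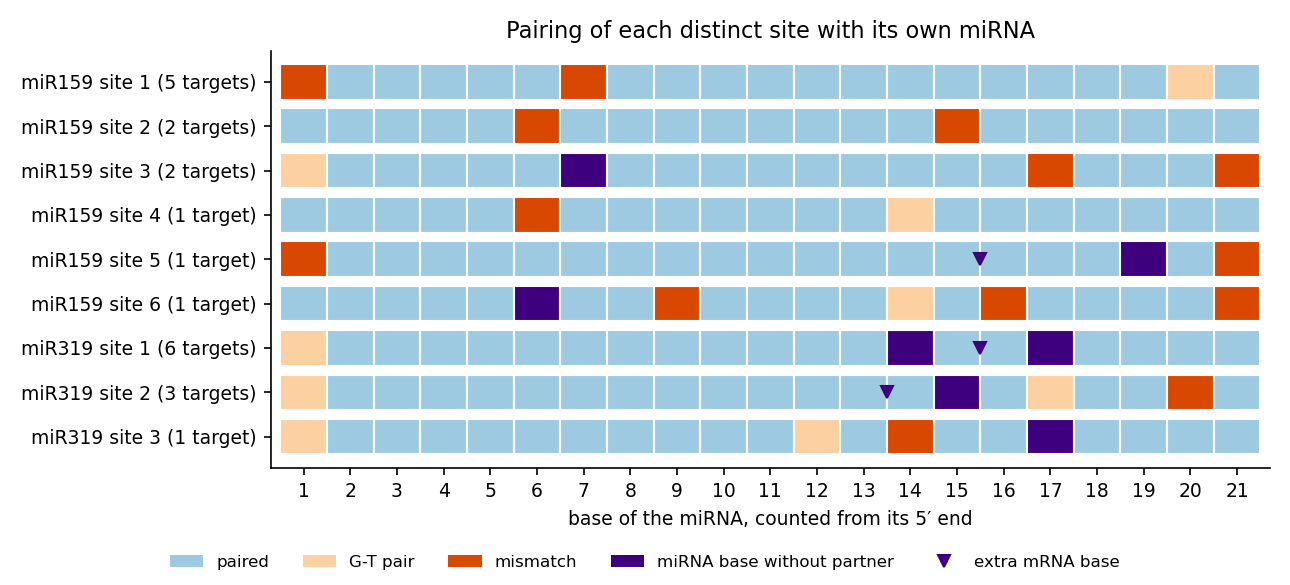
Pairing of each of the 9 distinct sites (rows) with its own miRNA, by base of the miRNA from the 5′ end (x axis); light blue is a Watson-Crick pair, and triangles are mRNA bases without a partner. The 3 miR319 sites are fully paired from base 2 to base 11, while all 6 miR159 sites but site 5 have an unpaired base at 6 or 7.

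Library totals, as deposited, were 6046506 and 6403019 reads in SS and 6409382 and 6739286 reads in LS, and known miRNAs took 6.51% and 6.50% of them in SS and 4.82% in each LS library. Over the 52 known miRNAs that reached 10 counts in at least 2 libraries, the counts of the SS libraries differed by more than sampling noise (chi-square of 1.61 per degree of freedom, p = 0.00353). In LS the difference between libraries stayed within that noise (chi-square of 1.005 per degree of freedom, p = 0.464). LS levels below therefore take both libraries as a single sample. The labels mention replicated experiments without tying a library to one of them, so the p-values below rest on the spread between libraries alone, and that spread may be technical.

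The comparison of the lines asks which miRNAs may take part in early silique development. ath-miR159a had 259 and 317 counts in the SS libraries, against 834 and 883 in the LS libraries. In RPM, reads per 1000000 of the library total, it stood at 42.8 and 49.5 in SS (95% Poisson intervals 37.8 to 48.4 and 44.2 to 55.3) and at 130.1 and 131.0 in LS (121.4 to 139.3 and 122.5 to 140.0). Both SS libraries lay below both LS libraries, with intervals that do not touch. Counting the order of the RPM values alone, without their intervals, 4 of the 52 tested miRNAs, or 7.69%, had both SS libraries below both LS libraries. The SS mean was 46.2 ± 4.72 RPM (SD, n = 2), and the LS level, with its libraries as 1 sample, was 131 RPM (counting interval 124.5 to 136.9). Within SS the counts of ath-miR159a differed by no more than counting error allows (exact binomial p = 0.0874), and likewise within LS (exact binomial p = 0.904). Intervals cover counting error only.

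**Figure D2:**
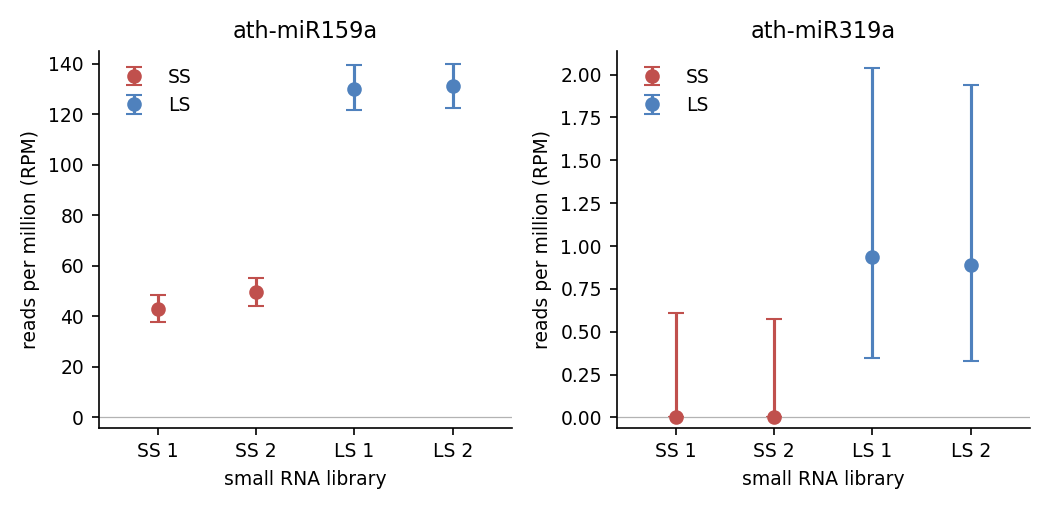
Level of ath-miR159a (left) and ath-miR319a (right) in each small RNA library, in RPM (y axis), with 95% Poisson intervals as bars. The SS libraries are at 42.8 and 49.5 RPM for ath-miR159a and at 0 for ath-miR319a, below the LS libraries in both panels. The intervals of the lines stay apart for ath-miR159a and overlap for ath-miR319a.

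ath-miR159a fell by 1.79 ± 0.05 in SS on the log2 scale (SE, edgeR quasi-likelihood test with TMM scaling, adjusted p = 5.39e-56). It had the second smallest p and the third lowest log2 fold change of the 52 tested. In the same fit 17.3% of all tested were lower in SS at the adjusted threshold of 0.05, and 51.9% passed in either direction. With the LS libraries summed into 1 sample the value was -1.80 (edgeR adjusted p = 2.38e-29). On the scale of the authors' library totals it was -1.497, and 5.77% of the tested miRNAs passed as lower. That scale puts the median log2 fold change over all tested at 0.41, against 0.12 with TMM, and splits the calls into 33 higher and 3 lower in place of 18 higher and 9 lower. ath-miR159a was among the lower ones on both scales. On summed counts the ratio of SS to LS was 0.354 (exact 95% interval 0.322 to 0.390), a level 2.82-fold lower in SS. The library-by-library folds ran from 2.63 to 3.06 over the 4 pairings of an SS with an LS library. Since tissue was taken whole, fewer cells that make the miRNA and less of it per cell cannot be told apart.

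**Figure D3:**
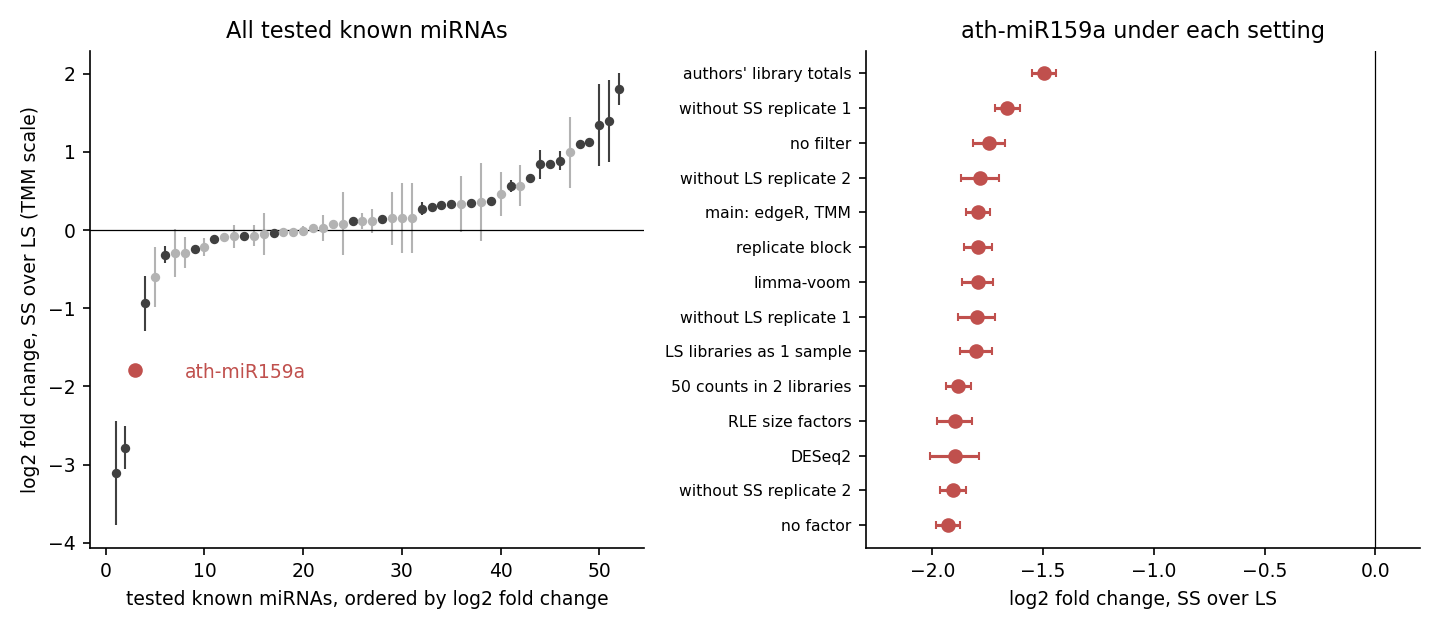
Left, log2 fold change of SS over LS (y axis, TMM scale, bars are SE) for the 52 tested known miRNAs in rising order, with dark points past the adjusted threshold and ath-miR159a in red, the third from the left. Right, the same value for ath-miR159a under each processing setting, between -1.93 and -1.497.

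ath-miR159a was the one counted member of miR159, so the family sum holds the same reads and its fit differs by the table of families alone. It fell by 1.87 ± 0.07 (SE, edgeR adjusted p = 1.58e-33), where 25% of the 32 tested families passed as lower in SS. Among all known miRNAs ath-miR159a ranked 24 of 69 in both SS libraries and 15 of 69 in both LS libraries. It made up 0.0658% and 0.0762% of known miRNA reads in SS and 0.270% and 0.272% in LS.

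ath-miR319a was near the limit of detection. It had 0 counts in both SS libraries (95% Poisson intervals 0 to 0.610 and 0 to 0.576 RPM). In each LS library it had 6 counts, 0.936 and 0.890 RPM (95% Poisson intervals 0.344 to 2.04 and 0.327 to 1.94). The intervals of single libraries therefore overlap between the lines. The SS values of 0 allow up to 0.241 RPM, taking 3 counts over both libraries as the floor. The exact two-sided 95% limit for SS is higher, at 0.296 RPM. From the lower limit of the summed LS count (0.472 RPM) to the floor of 0.241 RPM, ath-miR319a was at least 1.96-fold lower in SS. Against 0.296 RPM the bound would be smaller. The bound does not depend on a fitted value. ath-miR319a did not reach the count filter of the test, so it has no call on the main scale. Given the library totals, an exact binomial test of the summed counts gave p = 0.000512, two-sided, which compares these libraries and not the lines. Without the count filter it passed edgeR's test (adjusted p = 0.000169), as did 11.6% of all 69 miRNAs in the same direction.

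In the authors' deposited tables both members carry a mark of change in both numbered pairs of libraries. The authors' deposited log2 fold changes of SS over LS are -1.60 and -1.40 for ath-miR159a and -6.55 and -6.48 for ath-miR319a. The authors' deposited tables write 0.01 RPM where the count was 0, so the ath-miR319a values are set by that number. Of the 69 miRNAs in the authors' deposited tables, 7.25% are marked as lower in SS in pair 1 and 8.7% in pair 2.

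The families differed widely in level. Of the reads of both families together, miR319 held 0 of 576 in SS, which allows a share of up to 0.521%, and 12 of 1729 in LS, or 0.694% (exact binomial 95% interval 0.359% to 1.21%). miR159 thus made up nearly all of the pair in every library. Whether miR319 fell further than miR159 was tested on this share. The difference of SS minus LS was -0.694 percentage points (Fisher's exact test on summed counts, two-sided, p = 0.0454), but the exact 95% interval of the odds ratio ran from 0 to 1.08 and includes 1. This test pools reads over libraries and covers counting error only, while the SS libraries differed by more than sampling noise. Without any 1 of the 4 libraries the p lay between 0.0871 and 0.385 by Fisher's exact test, so at this depth a fall of miR319 beyond that of miR159 rests on all 4 libraries.

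By distance of the centred log2 values over the 4 libraries, the known miRNAs most like ath-miR159a were ath-miR169d (0.935), bra-miR2111b-3p (0.960) and ath-miR160a-5p (1.20), where the median of the 59 candidates was 1.94. ath-miR169d, of a family that acts on NF-Y genes, had 2 and 4 counts in SS against 5 and 5 in LS and was not tested. bra-miR2111b-3p, of a family that responds to phosphate supply, had 13 and 19 counts in SS against 21 and 32 in LS. It fell by 0.94 ± 0.35 (SE, edgeR adjusted p = 0.0166), but was at -0.65 and no longer past the test when the authors' totals set the scale. Other tested miR2111 members went both ways, from -0.60 for bna-miR2111b-3p to 1.40 for bna-miR2111c. The miR2111 family sum was at -0.18 (edgeR adjusted p = 0.448). ath-miR160a-5p, of a family that acts on ARF genes of auxin signalling, fell by 2.78 ± 0.27, with 17 and 11 counts in SS against 81 and 86 in LS. The family as a whole moved less, with a sum at -0.36. Its members ath-miR160a-3p and aly-miR160b-3p were at -0.09 and -0.29 and did not pass the test.

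The miRNAs most like ath-miR319a by the same distance were ath-miR394a (2.08), bol-miR398a-5p (2.16) and ath-miR160a-5p (2.46), with a median of 5.34 over the candidates. ath-miR394a, of a family with an F-box gene as its target, had 1 and 1 counts in SS against 8 and 10 in LS. bol-miR398a-5p, from the 5′ arm of a family linked to copper supply, had 1 and 2 counts in SS against 12 and 12 in LS. All but ath-miR160a-5p were low in every library, and a few reads decide these distances.

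Among families that act mainly on transcription factors, the shares of calls were near those over all tested miRNAs. Of 26 tested members of a list of 15 such families, 11 were higher (42.3%) and 5 lower (19.2%) in SS, ath-miR159a among the lower. Over all tested miRNAs 34.6% were higher and 17.3% lower. The list's median log2 fold change was 0.13, beside 0.12 over all 52 tested. With the authors' library totals 17 were higher (65.4%) and 2 lower (7.69%), where 63.5% of all tested were higher and 5.77% lower. smo-miR156c and ath-miR157a-5p, from families that act on SPL genes, rose by 0.35 ± 0.01 and 1.10 ± 0.04, and both were higher under every scaling tried. ath-miR166a-3p, which acts on HD-ZIP genes, fell by 0.03 ± 0.01, but was at 0.26 with the authors' library totals and at 0.01 without the count filter. A narrower list of 6 families known for GAMYB, TCP, NAC, GRF, GRAS and NF-Y targets had 9 tested members, with a median of -0.08. Of these, 2 were higher and 2 lower in SS (22.2% each), ath-miR159a itself among the lower. On the scale of the library totals 3 were higher (33.3%) and 1 lower (11.1%), which was ath-miR159a, with a median of 0.22. At 9 members, 1 call moves these shares by 11.1 percentage points.

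In the degradome each line had 1 library, so no difference between the lines could be tested. bra-miR159a was paired with 11 mRNAs in SS and 5 in LS, and bra-miR319-3p with 10 in SS and 5 in LS. These numbers ranked miR159 at 7 and miR319 at 8 of 20 families in SS, and both at 4 of 15 in LS. The LS table stops inside an entry although its mRNAs are sorted by name, and it holds no mRNA of the C subgenome for either family, against 7 for miR159 and 4 for miR319 in SS. Up to the last mRNA of the LS table, miR159 had 4 mRNAs in SS and 5 in LS, and miR319 had 6 in SS and 5 in LS. The larger number in the whole SS table therefore mostly covers mRNAs that the LS table does not reach.

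Over the range that both tables cover, 9 pairs of a member miRNA and an mRNA were in both lines, 90.0% of the 10 pairs of SS and 90.0% of the 10 of LS. For other known miRNAs, 70 pairs were in both lines, 59.3% of 118 in SS and 82.4% of 85 in LS, and for predicted miRNAs 23 pairs, 35.4% of 65 in SS and 34.3% of 67 in LS. Pairs were counted by miRNA name, so an mRNA listed under several names of 1 family counts more than once among other known miRNAs. Each member family had 1 name, so its shares are not of quite the same unit. With 10 member pairs a line and 1 library each, these shares are descriptions of the tables and were not tested. All 4 miR159 mRNAs of SS were also in LS, which is 100% of the SS list and 80.0% of the LS list. They were BnaA03g15690D, BnaA03g22590D, BnaA05g02890D and BnaA05g27620D. For miR319, 5 mRNAs were shared, 83.3% of the SS list and 100% of the LS list. All 9 shared mRNAs had the same position in both tables.

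Over that range 1 of the 10 member pairs of SS and 1 of the 10 of LS were in that line alone. Other known miRNAs, again counted by name, had 48 of 118 pairs in SS alone and 15 of 85 in LS alone. BnaA08g25530D was paired with bra-miR159a in LS at position 2758 of the mRNA, with an alignment score of 4.5, the highest of all member entries, where a lower score means better pairing. It carries miR159 site 6, with 3 mismatches, 1 gap and 1 G-T pair. BnaA05g30730D was paired with bra-miR319-3p in SS at position 1024, with a score of 3 and the deposited category 1. It had the smallest deposited p of the miR319 entries in SS (0.006). In SS the smallest deposited p of miR159 was that of BnaA03g15690D, listed as 0, at position 549 with a score of 2. In LS all entries of a family had the same deposited p, 0.002 for miR159 and 0.022 for miR319.

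Entries of both families stood mostly in category 0, which in the scheme common for degradome data marks the position with the most reads of its mRNA. The sources used here give no definition. All 11 miR159 entries of SS and all 5 of LS were in category 0, as were 9 of 10 miR319 entries in SS and 5 of 5 in LS. Among other known miRNAs category 0 took 68.4% of 361 entries in SS and 95.3% of 85 in LS, and among predicted miRNAs 19.5% of 195 and 20.9% of 67. Alignment scores of miR159 had a median of 2.5 in both libraries (1.5 to 4 in SS and 2 to 4.5 in LS), and those of miR319 a median of 3.5 in both (3 to 4 in SS and 3.5 to 4 in LS). The median score was 2 for other known miRNAs and 3.5 for predicted miRNAs in both libraries, so the miR319 median lay above that of the other known miRNAs and equalled that of the predicted ones. The lowest score of any member was 1.5, for BnaC04g43020D with miR159 site 4 at position 915.

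Several mRNAs of the A and C subgenomes carried the same site at nearly the same place. With bra-miR159a, BnaA03g22590D and BnaC03g26620D were both listed at position 933, and BnaA05g27620D and BnaCnng31260D at 996. BnaA03g15690D was listed at 549 and BnaC03g18870D at 543. With bra-miR319-3p, BnaA03g33680D and BnaC03g38850D were both listed at 1042, and BnaA05g11640D, BnaA05g11650D and BnaC04g13290D at 862. Reads of such near-identical mRNAs can be shared in a way the tables do not resolve, so these mRNAs may not be separate observations.

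No mRNA was paired with both families. Of the 22 mRNAs, 12 were paired with miR159 alone and 10 with miR319 alone, and 0 with both. The same 22 carried no entry of any other known or predicted miRNA in either library. Of the other 449 mRNAs in the tables, 102 were paired with 2 or more miRNA names. Names of the same family count apart here, while each member family had a single name, so the units are unlike. How many were paired with 2 or more families was not counted. The lack of overlap is therefore not shown to be particular to miR159 and miR319.

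Each site was also scored against the miRNA of the other family with the costs of the deposited score. These are 1 for a mismatch or gap and 0.5 for a G-T pair, costs that give the deposited score in all 31 member entries. The listed sites had already been picked for pairing with their own miRNA, so a worse score with the other was likely beforehand. The scores describe the sites and do not test how far they separate the families. With sites cut to the deposited alignment, every site scored worse with the other family's miRNA. The closest case was miR159 site 1, on 5 mRNAs, which scored 4.0 with bra-miR319-3p and 2.5 with bra-miR159a. A score of 4.0 lies within the range of scores in the tables, yet these mRNAs are listed with bra-miR159a alone. The other miR159 sites scored 6.0 to 8.5 with bra-miR319-3p. The 3 miR319 sites scored 5.5, 6.5 and 5.5 with bra-miR159a, against 3.0, 3.5 and 3.0 with bra-miR319-3p. The best alignment of miR319 sites 1 and 2 with their own miRNA was 0.5 better than the deposited one. The scoring used the deposited site, for which no flanking bases are given. This can raise the score with the other miRNA because the miRNAs are offset by 1 base, and each end base without a partner costs 1. For miR159 site 1, 4.0 against 2.5 therefore does not settle which miRNA pairs better.

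**Figure D4:**
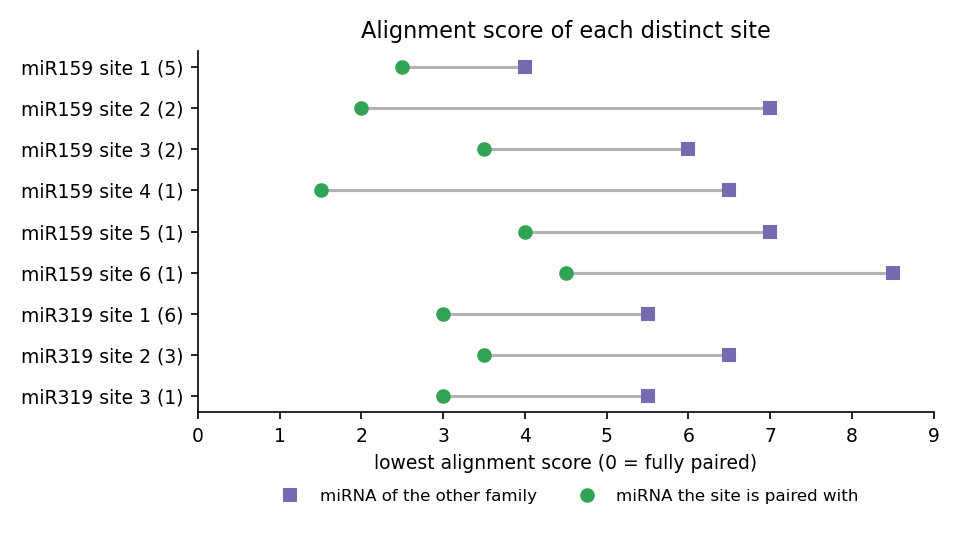
Lowest alignment score (x axis, 0 is full pairing) of each distinct site with the miRNA of the other family (squares) and with the miRNA it is listed with (circles); the number of mRNAs is in brackets. Squares lie to the right of circles for all 9 sites, and miR159 site 1 has the smallest gap, 4.0 against 2.5. Sites are cut to the alignment with their own miRNA, which can raise the squares, so the order for miR159 site 1 is not settled.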

How the data were processed

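Small RNAs of 18 to 30 nt were sequenced, per the labels' protocols. The deposited counts are whole reads per known miRNA, and the deposited RPM values are counts per 1000000 of the library total, with 0.01 for a count of 0, per the file headers and the values. The authors' log2 fold changes and p-values compare 1 library with 1 library. No source used here names the degradome caller, aligner, annotation or genome build.

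The test was edgeR 4.0.16 in R 4.3.3 on all known miRNAs with 10 or more counts in 2 libraries, two-sided, with Benjamini-Hochberg adjustment. A check on simulated data changed fewer miRNAs than were called here and left the most abundant ones unchanged. That check therefore does not cover shifts like those called here. The SE is the size of the log2 fold change divided by the root of the F statistic. Unless stated, fits kept the LS libraries separate, so their p-values may be too small. Alternatives included DESeq2 1.42.0 and limma 3.58.1. All rows and entries of both families are described, with the 3 nearest miRNAs by distance of log2 values (offset 0.5) and the listed family members with the 2 smallest p each way. The members and lists were chosen with earlier results of these data known. Tables of predicted miRNAs carry no family and were not used.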

Additional observations from a re-analysis of the deposited data

How the results depend on the processing

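ath-miR159a kept its direction and its call in all 14 alternatives, between -1.93 and -1.497 on the log2 scale, with edgeR, DESeq2 or limma adjusted p up to 0.000246. That highest p came from the replicate number as a block, where the value was -1.79. The block, with 23 miRNAs past the test against 27 without it, changed no call of a member. Deviations of same-numbered libraries had a correlation of -0.26 over 52 miRNAs, so the numbers were not taken as pairs. With the pairs crossed, an alternative chosen after the data were seen, 25 miRNAs and 18 families passed. The scores against the other family's miRNA were also chosen then. The miR159 sum lay between -1.96 and -1.497.

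ath-miR319a had no call with the count filter, but passed without it (edgeR adjusted p = 0.000169) and by the exact test of summed counts (p = 0.000512), because these do not apply the filter. The difference in the share of miR319 lay between -0.714 and -0.675 percentage points with 1 library left out, and was not past the test in any of these cases. With all libraries the exact 95% interval of the odds ratio already included 1.

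Up to the last mRNA of the LS table, the 31 member entries became 20, with 5 mRNAs of miR159 alone and 6 of miR319 alone, because mRNAs beyond it are left out. With scores of 4 or less, 30 entries remained. miR319 had 12 counts in all, which limits what its comparison can show.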
